A study of Mus musculus with 20 samples.

Results

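Ciita and the genes of MHC class II presentation were followed through RNA-seq of murine bone marrow-derived dendritic cells (BMDCs). The genes were chosen by their symbols, as the class II transactivator and the classical and accessory class II genes: Ciita, H2-Aa, H2-Ab1, H2-Eb1, Cd74, H2-DMa, H2-DMb1, H2-DMb2, H2-Oa and H2-Ob. These are 10 of the 24421 genes in the count table, and 10 of 10 passed the filter on low counts, which kept 12465 genes for testing. The list was drawn up with results of these libraries known, the comparisons of iBET with DMSO included, so the p-values below describe its genes and are no independent evidence for them.

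Marrow of wild-type C57BL/6 mice was cultured for 8 days with GM-CSF at 40 ng/mL, and cells of 5 mice (A to E) each gave 4 libraries, so that every group held 5 libraries. The DMSO Ova group received solvent and soluble ovalbumin, and the DMSO IC group solvent and ovalbumin immune complexes (IC). The iBET Ova and iBET IC groups received I-BET151 (iBET), a small-molecule inhibitor of the BET bromodomain proteins, at 3.3 μM with the same stimuli, and stimulation lasted 4 hours in each group. The labels give 5% DMSO for the control groups and no solvent content for the iBET groups, and they describe iBET and stimulus as given together, whereas the methods place iBET 30 minutes earlier. They also speak of cells sorted into lysis buffer, with no gate described.

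MHC class II molecules are α/β heterodimers that carry peptides from endocytosed proteins to the surface of dendritic cells, macrophages and B cells for recognition by CD4+ T cells. The invariant chain, the product of Cd74, occupies the groove until H2-M removes its last fragment and edits the peptide, and H2-O restrains H2-M. The genes share a promoter module of X and Y boxes, bound by the RFX complex and NF-Y, on which CIITA, the coactivator that does not itself bind DNA, assembles. In C57BL/6 mice the I-A pair (H2-Aa with H2-Ab1) is the complete class II molecule, because the I-E α chain gene of this strain is a pseudogene. That pseudogene, H2-Ea-ps, had between 0 and 2 counts in a library.

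Libraries held 16447491 to 29245150 counts (median 21764663), of which the class II genes with Ciita took 0.269% to 0.715%. Dendritic cell markers (6 genes, Itgax among them) summed to between 2190 and 2930 CPM (counts scaled to library size after TMM normalization) in a library, and macrophage markers (8 genes) to between 1030 and 2130. The T cell markers in the table summed to at most 0.163 CPM. The cells thus had dendritic cell and macrophage markers together. In bulk libraries, fewer cells of a type and less RNA per cell cannot be told apart.

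The levels of the genes spanned several orders of magnitude. Per kilobase of exon, in the DMSO Ova group, Cd74 was first with 1590 ± 438 CPM per kb (SD, n = 5 mice). H2-Eb1 with 128 ± 56.9, H2-Aa with 117 ± 46 and H2-Ab1 with 113 ± 30.2 CPM per kb followed and did not differ beyond their spread. H2-DMb1 with 68 ± 10.8 and H2-DMa with 54.7 ± 5.43 CPM per kb came next, with spreads that touched, and then H2-DMb2 with 29.8 ± 9.95. At the low end lay H2-Oa with 6.07 ± 2.79 and Ciita with 4.59 ± 2.72 CPM per kb, which overlapped, and H2-Ob with 0.215 ± 0.109. All genes were measured in the same 5 mice, so an SD between mice is not the spread of a difference between genes. Such differences were not tested within mice. H2-Ob rested on 7 to 53 counts in a library, so its counting error was large in each group. The order rests on the divisor, the union of all annotated exons of a gene. In CPM, H2-DMa with 188 ± 18.7 lay above H2-DMb1 with 114 ± 18.1, and Ciita with 43.8 ± 25.9 above H2-Oa with 8.54 ± 3.93.

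Ciita was almost lost with iBET, with either stimulus. In the DMSO Ova group it had 16.8, 21.6, 54.1, 80.5 and 46.2 CPM in mice A, B, C, D and E. In the iBET Ova group the same mice had 0.687, 0.705, 1.46, 1.76 and 2.22 CPM, which is 13 to 53 counts per library. The highest iBET library lay below the lowest DMSO library, so the groups did not overlap, and each mouse kept between 2.18% and 4.8% of its DMSO level.

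With IC the picture was the same. Ciita had 19.5, 18.7, 53.5, 79.6 and 61.9 CPM with DMSO and 0.666, 0.606, 1.29, 1.38 and 1.33 CPM with iBET in mice A to E. Between 1.74% and 3.42% of the DMSO level was left in a mouse, and again no library of one group reached the other. For Ova the fitted log2 fold change was -4.99, a 31.8-fold lower level (SE 0.536, adjusted p = 1.57e-07). Here and below, adjusted p comes from the quasi-likelihood F-test in edgeR after Benjamini-Hochberg correction over all tested genes. For IC it reached -5.51 (SE 0.556, edgeR adjusted p = 6.68e-08), or 45.5-fold lower. Ordered by log2 fold change, Ciita stood 12th from the lowest of the 12465 genes with Ova and 7th from the lowest with IC.

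The fall of Ciita passed in either set of mice taken alone. For Ova it amounted to -4.77 on the log2 scale in mice A and B alone and -4.98 in the other 3, and for IC to -4.88 and -5.57. With IC, mice A and B kept 3.23% to 3.42% of the DMSO level and the other 3 kept 1.74% to 2.42%, a difference that carries no test. Ciita lies on chromosome 16 from 10480059 to 10528418 (GRCm38, plus strand), and 3.45% of its exonic bases are shared with Dexi on the opposite strand, a gene with 113 to 413 counts in a library. The strand setting of the counting is not given in the sources used here, so how many of the remaining Ciita counts belong to Dexi was not tested.

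**Figure D1:**
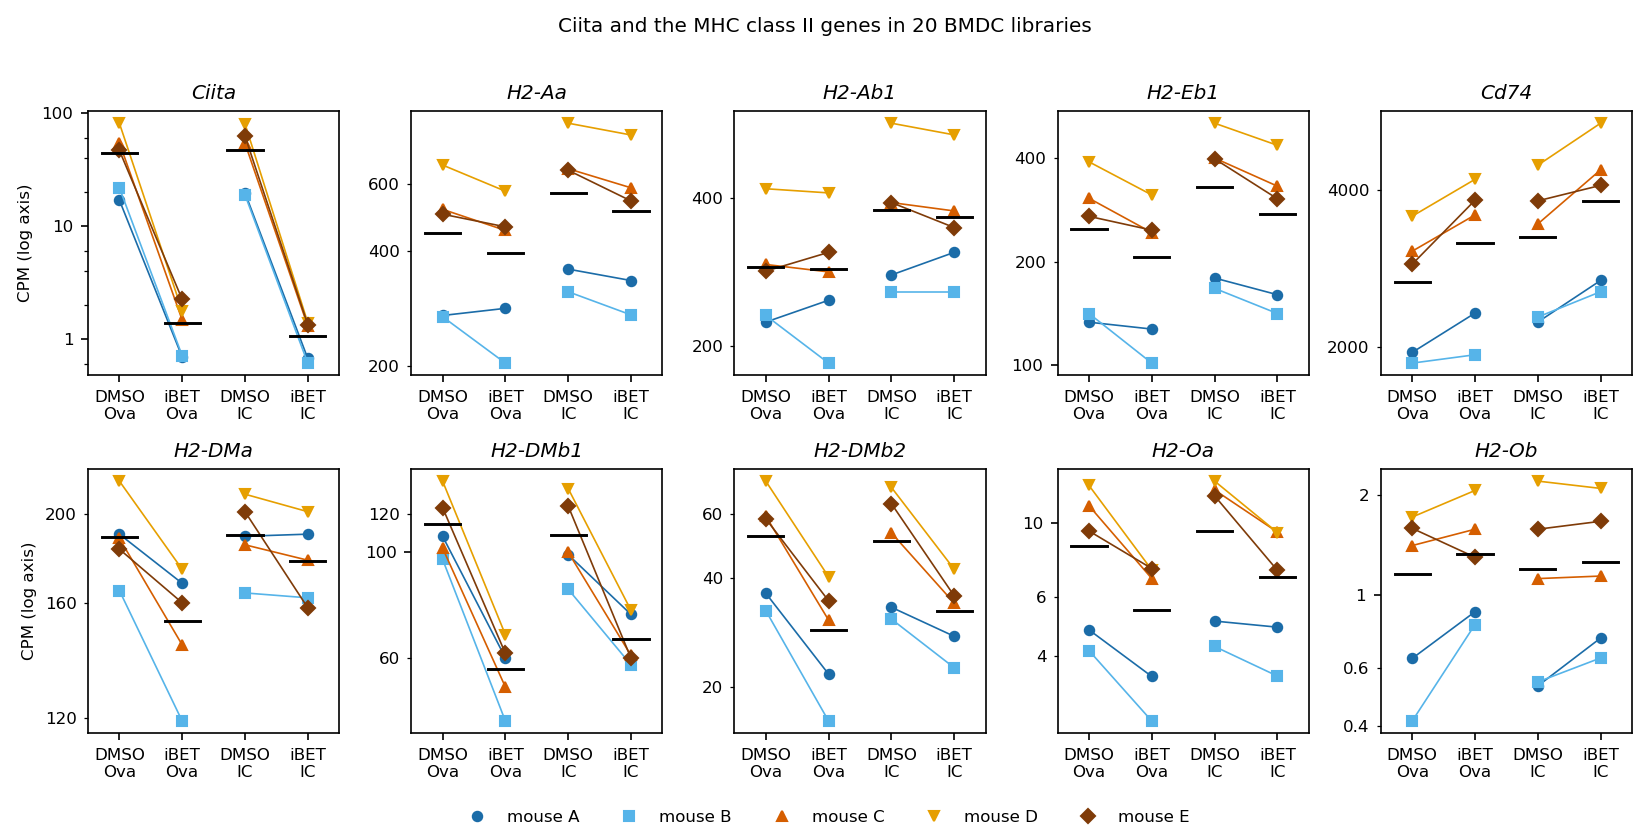
CPM (log axis, a separate scale for each gene) of Ciita and the 9 class II genes in the 4 groups, with a marker for each mouse, lines that join the DMSO and iBET libraries of a mouse under the same stimulus, and a black bar at the group mean. Ciita falls from between 16.8 and 80.5 CPM to at most 2.22 CPM in 5 of 5 mice, while H2-Ab1 keeps 80% to 111% of its DMSO level with either stimulus and Cd74 lies higher with iBET in 5 of 5 mice.

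Stretches of promoter are shown for the 6 genes in which the letters of the Y box, a part of the module on which CIITA acts, were found. RefSeq promoter windows (GRCm38.p6, 250 bases before to 50 after the start) were matched for 7 of the 10 genes, with no entry for Ciita, H2-Ab1 and Cd74. Capitals mark TGATTGG, the core of the Y box bound by NF-Y, and, before it, AACNNATGATG, the end of the X box, both written 5′ to 3′ on the gene's strand:
H2-Eb1: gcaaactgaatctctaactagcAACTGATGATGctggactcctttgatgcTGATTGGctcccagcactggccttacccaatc
H2-DMb1: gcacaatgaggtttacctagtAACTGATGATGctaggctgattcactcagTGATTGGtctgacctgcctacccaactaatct
H2-DMb2: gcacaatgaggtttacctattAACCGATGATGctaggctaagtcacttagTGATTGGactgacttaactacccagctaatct
H2-Ob: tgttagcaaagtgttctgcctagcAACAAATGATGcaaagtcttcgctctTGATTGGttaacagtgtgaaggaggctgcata
H2-Aa: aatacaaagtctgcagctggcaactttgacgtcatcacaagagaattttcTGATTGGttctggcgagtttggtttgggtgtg
H2-Oa: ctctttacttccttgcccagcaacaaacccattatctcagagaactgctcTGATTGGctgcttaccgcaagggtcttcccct

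The stretches lie at chr17:34305756-34305837 (H2-Eb1, plus strand), chr17:34153078-34153159 (H2-DMb1, plus), chr17:34145107-34145188 (H2-DMb2, plus), chr17:34238796-34238877 (H2-Ob, plus), chr17:34287842-34287923 (H2-Aa, minus) and chr17:34092284-34092365 (H2-Oa, plus). In the 4 promoters with both motifs, 15 to 18 bases separated them, and in the 6 with TGATTGG it began 45 to 92 bases before the start. Neither motif was found in the 2 windows of H2-DMa. On either strand, TGATTGG was present in 7.82% of the 32851 promoter windows of the genome, AACNNATGATG in 0.137% and both in 9 windows (0.0274%), 4 of which are those printed. The letters were picked after these promoters had been read, they do not overlap each other, and a match is a description of the sequence only. Of the 4 genes with both motifs, H2-DMb1 was lower with iBET under either stimulus, H2-DMb2 passed with Ova and not with IC, and H2-Eb1 and H2-Ob did not pass with either (4 groups as the only factor).

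The classical α and β chain genes moved little with iBET. H2-Aa encodes the α chain of I-A, and had 271, 269, 516, 675 and 501 CPM with DMSO Ova in mice A to E. With iBET Ova it had 283, 203, 454, 576 and 464 CPM, so that 4 of 5 mice were lower and the ranges overlapped. The log2 fold change of -0.17 did not pass with Ova (SE 0.349, edgeR adjusted p = 0.696), and neither did that of -0.17 with IC (SE 0.349, 5 of 5 mice lower). With the mouse as a term of the model both comparisons passed as lower (edgeR adjusted p = 0.00825 and 0.00944).

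H2-Ab1, the I-A β chain, was the steadiest of the classical genes. It had 289 ± 77.6 CPM with DMSO Ova and 287 ± 82.9 CPM with iBET Ova (SD, n = 5 each), and 377 ± 122 against 366 ± 105 CPM with IC. Single mice kept between 80% and 111% of their DMSO level with Ova and between 89.1% and 111% with IC. The log2 fold changes of -0.01 (SE 0.239) and -0.04 (SE 0.239) did not pass, and H2-Ab1 was the only one of the 3 classical genes that did not pass with the mouse as a term of the model either (log2 fold change -0.02 ± 0.0599 SE, edgeR adjusted p = 0.747 with Ova, and -0.03 ± 0.0597, adjusted p = 0.663 with IC).

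H2-Eb1, the I-E β chain, had 133, 141, 306, 391 and 271 CPM with DMSO Ova and 127, 101, 243, 313 and 247 CPM with iBET Ova in mice A to E. Each of the 5 mice was lower with iBET, and the groups overlapped. Its log2 fold change of -0.27 (SE 0.396, edgeR adjusted p = 0.583) with Ova did not pass, and with IC it was also -0.27 (SE 0.396, 5 of 5 mice lower). With the mouse as a term of the model both passed (edgeR adjusted p = 0.000188 and 0.000272). H2-Eb2, a class II β gene of the same region that was not on the list of 10 and is named here after its values were seen, had 1 to 65 counts in a library, and passed as lower with IC (-2.07, edgeR adjusted p = 0.0447) but not with Ova (-1.4, adjusted p = 0.185).

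Cd74 lay higher with iBET in each mouse, by less than the spread between mice. This gene, on chromosome 18 from 60803848 to 60812652, encodes the invariant chain and had 1950, 1860, 3050, 3560 and 2880 CPM with DMSO Ova. With iBET Ova it had 2320, 1930, 3580, 4190 and 3820 CPM, which was 104% to 133% of the DMSO level of the same mouse. In the IC groups the means were 3240 ± 974 CPM for DMSO and 3810 ± 1190 CPM for iBET (SD over 5 mice), again with 5 of 5 mice higher. The log2 fold changes of 0.25 (SE 0.261, edgeR adjusted p = 0.429) and 0.23 (SE 0.261) did not pass with the 4 groups as the only factor. With the mouse as a term of the model both comparisons passed as higher (edgeR adjusted p = 0.000574 and 0.000824).

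Of the class II genes, the 3 of H2-M passed as lower with iBET in the Ova groups, with the 4 groups as the only factor. In the IC groups H2-DMb1 passed, H2-DMb2 lay just outside the threshold and H2-DMa did not pass. H2-DMb1, which encodes a β chain of the peptide editor, had 108, 96.6, 102, 141 and 124 CPM with DMSO Ova and 60, 44.2, 52.1, 67.1 and 61.3 CPM with iBET Ova in mice A to E. In the IC groups the values were 98.8, 83.6, 100, 136 and 125 CPM with DMSO and 74, 58, 60.7, 75.5 and 59.9 CPM with iBET. In both comparisons every iBET library lay below every DMSO library. H2-DMb1 fell by 1.01 on the log2 scale with Ova (SE 0.139, edgeR adjusted p = 4.24e-06) and by 0.73 with IC (SE 0.138, adjusted p = 0.000161). In mice A and B alone the IC value was -0.45 and did not pass (edgeR adjusted p = 0.0542), against -0.85 in mice C, D and E (adjusted p = 0.000171).

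H2-DMb2, the second β chain gene, had 36.3, 32.5, 59.3, 74.1 and 58.3 CPM with DMSO Ova and 21.7, 16.1, 30.6, 40.3 and 34.6 CPM with iBET Ova. Each mouse fell to between 49.6% and 59.9% of its DMSO level, although mice C, D and E with iBET overlapped with mice A and B with DMSO. With Ova its log2 fold change of -0.86 passed (SE 0.28, edgeR adjusted p = 0.0129). With IC the value of -0.64 lay just outside the threshold (SE 0.279, adjusted p = 0.0569), but passed without mouse B (adjusted p = 0.0366) and in DESeq2 (adjusted p = 0.041). With the mouse as a term of the model H2-DMb2 passed with IC as well (-0.59, edgeR adjusted p = 5.91e-07, 5 of 5 mice lower). Of the stretches of 75 bases in the transcripts of H2-DMb1, 15.8% also occur in those of H2-DMb2, and how the counting divided reads from those stretches is not known.

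H2-DMa, the α chain of H2-M, had 190, 165, 188, 217 and 183 CPM with DMSO Ova and 168, 119, 144, 174 and 160 CPM with iBET Ova. With Ova 5 of 5 mice were lower and the log2 fold change of -0.3 passed (SE 0.1, edgeR adjusted p = 0.0145). With IC 4 of 5 mice were lower, and -0.09 did not pass (SE 0.0999, adjusted p = 0.441). Leaving out mouse C, neither H2-DMa (edgeR adjusted p = 0.0879) nor H2-DMb2 (adjusted p = 0.0645) passed with Ova. H2-DMa shares 10.4% of its exonic bases with Brd2 on the opposite strand. Brd2, which encodes a BET protein, rose from between 3471 and 6987 counts per library with DMSO Ova to between 21088 and 30252 with iBET Ova, and the share of H2-DMa counts that come from it was not tested.

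Of the H2-O genes, H2-Oa, the α chain of the H2-M inhibitor, had 4.79, 4.15, 11.3, 13 and 9.49 CPM with DMSO Ova and 3.47, 2.55, 6.83, 7.25 and 7.32 CPM with iBET Ova in mice A to E. It was lower in 5 of 5 mice with either stimulus, with -0.64 (log2, SE 0.398, edgeR adjusted p = 0.176) and -0.48 (SE 0.393, edgeR adjusted p = 0.314) that did not pass. With the mouse as a term of the model both comparisons passed as lower (edgeR adjusted p = 8.96e-06 and 0.000365). BC051537, which shares 22.8% of the exonic bases of H2-Oa on the opposite strand, had 0 to 4 counts in a library. H2-Ob, the β chain, had 1.16 ± 0.588 CPM with DMSO Ova and 1.33 ± 0.518 CPM with iBET Ova (SD, n = 5 each), and at this depth no difference was detectable (log2 fold change 0.19, SE 0.441).

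In all, 4 of the 10 genes were lower with iBET in the Ova groups (Ciita, H2-DMb1, H2-DMb2 and H2-DMa) and 0 higher, beside 28.9% of all tested genes lower and 27.7% higher. In the IC groups, 2 were lower (Ciita and H2-DMb1) and 0 higher, beside 29.0% and 27.1% of all tested genes. A count of 4 or 2 in 10 is no result about the list beside those shares of all genes. Macrophage markers, 4 of 8 of which were lower with Ova and 2 of 8 with IC, summed to 1400 to 2110 CPM with DMSO Ova and 1030 to 1470 CPM with iBET Ova, and their part in the changes above was not tested. Dendritic cell markers summed to 2190 to 2710 and 2260 to 2760 CPM, most of which was Itgax. Of the 5 of them tested, 1 was lower with either stimulus (Flt3, from 3.03 ± 1.76 to 0.242 ± 0.113 CPM with Ova) and 4 with the replicate block, with a median log2 fold change of -0.48 with Ova and -0.42 with IC, and their part was not tested either. Flt3, Dpp4, Ccr7 and Zbtb46, the 4 lower with the block, are named after their values were seen. Itgax, the other tested marker, passed as higher with the block in the IC groups, and did not pass in the Ova groups. It had 2060 ± 290 CPM with DMSO IC and 2290 ± 333 CPM with iBET IC (SD, n = 5 each). Ciita and H2-DMb1 were the 2 genes whose groups did not overlap, with all iBET libraries lower, in either comparison, as was the case for 19.5% of all tested genes with Ova and 21.6% with IC. The median log2 fold change of the 10 genes was -0.29 with Ova and -0.22 with IC, beside 0 and -0.01 over all tested genes.

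The cells of the 4 groups came from the same 5 mice, and most of the spread above lay between mice. With the mouse as a term of the model, a replicate block, 7 of the 10 genes were lower with iBET and 1 higher with Ova, beside 35.2% and 33.5% of all tested genes. With IC, 6 were lower and 1 higher, beside 35.4% and 32.6%. The added genes were H2-Aa (adjusted p = 0.00825 with Ova and 0.00944 with IC, edgeR with the block), H2-Eb1 (0.000188 and 0.000272), H2-Oa (8.96e-06 and 0.000365) and, with IC, H2-DMb2 (5.91e-07) as lower, and Cd74 as higher (0.000574 and 0.000824). In this model the log2 fold changes of H2-Aa, H2-Eb1 and Cd74 lay between -0.27 and 0.24, those of H2-Oa were -0.62 and -0.42, and that of H2-DMb2 with IC was -0.59. Ciita had -4.96 ± 0.139 (SE) with Ova and -5.39 ± 0.143 with IC.

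**Figure D2:**
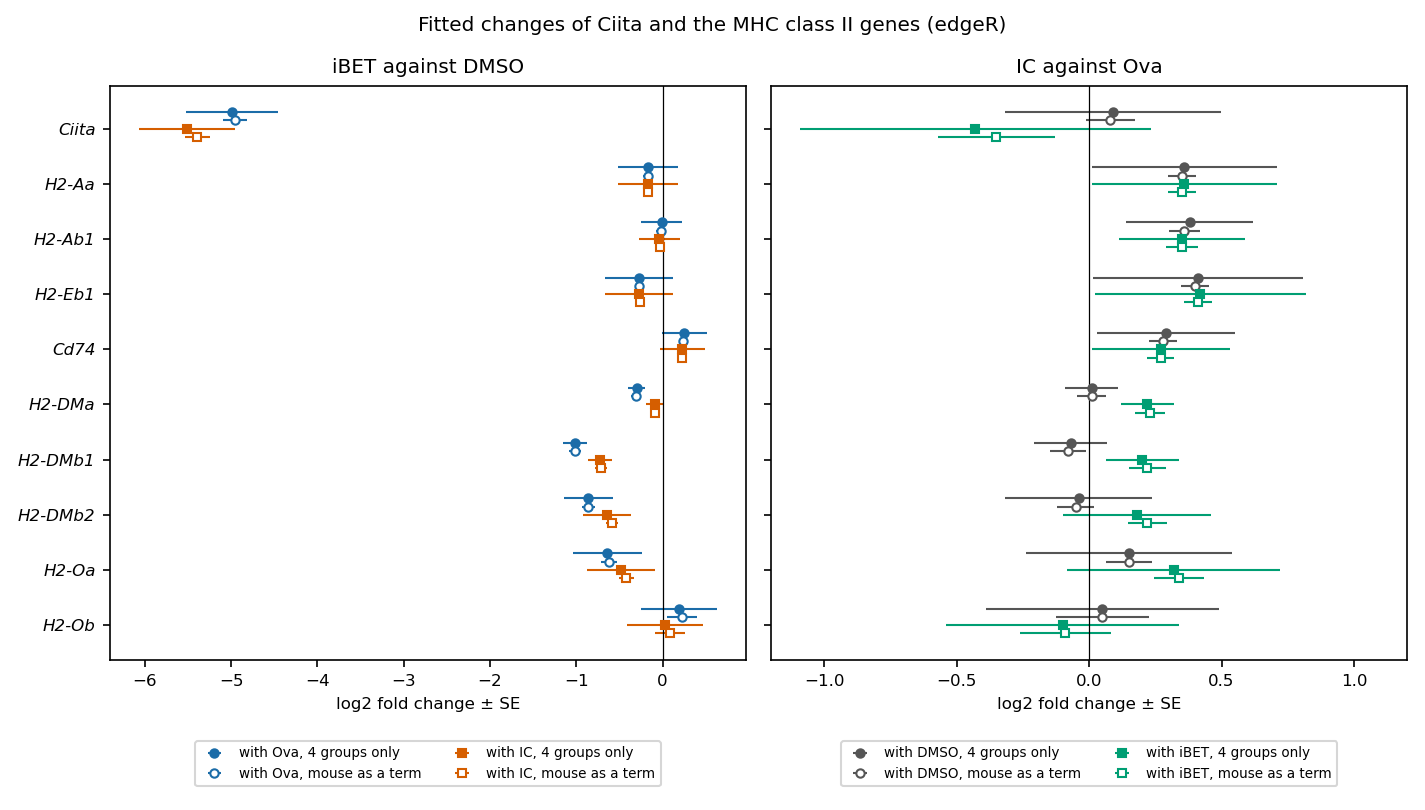
Fitted log2 fold changes with standard errors for each gene, iBET against DMSO on the left and IC against Ova on the right, from edgeR with the 4 groups only (filled) and with the mouse as a further term (open). The estimates hardly move between the models and the error bars shrink, and on the left Ciita stands near -5 while the other 9 genes lie between -1.01 and 0.25.

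Mice A and B differed from mice C, D and E in these genes. In each of the 4 groups, Ciita, H2-Aa, H2-Ab1, H2-Eb1, Cd74, H2-DMb2, H2-Oa and H2-Ob were lower in mice A and B than in mice C, D and E with no overlap, whereas H2-DMa overlapped in 4 of 4 groups and H2-DMb1 in 3 of 4. With DMSO Ova, for example, H2-Eb1 had 133 to 141 CPM in mice A and B and 271 to 391 CPM in mice C, D and E. This split of the mice was known from earlier results and carries no test, and no batch is named in the labels or the methods. How many of all tested genes separate these mice was not counted, so the separation is no result about the list. Macrophage markers in the DMSO Ova group summed to 1980 to 2110 CPM in mice A and B and 1400 to 1620 CPM in mice C, D and E, and neutrophil markers (7 in the table) to 15.8 to 16.6 CPM against 20.8 to 51.3 CPM. Of the dendritic cell markers, Ccr7, Zbtb46, Dpp4 and Flt3 split the same way as the class II genes, and are named here after their values were seen. With DMSO Ova, Ccr7 had 209 to 228 CPM in mice A and B and 592 to 681 CPM in mice C, D and E, and Zbtb46 had 12 to 12.9 against 31.9 to 33.7 CPM. Dpp4 had 4.45 to 5.45 against 23 to 28.2 CPM, and Flt3 had 1.01 to 1.7 against 2.82 to 4.94 CPM. Itgax did not split this way, with 1970 to 2210 CPM in mice A and B and 1720 to 2060 CPM in mice C, D and E. With DMSO IC it was higher in mice A and B, with 2150 to 2500 against 1760 to 2050 CPM. Cd209a, also on the list, had only 2 to 11 counts in a DMSO Ova library. The part of these markers in the difference between the mice was not tested.

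Among mice of the same group, Ciita varied together with the classical class II genes and with others of the list. After the group means were removed, the log2 CPM of Ciita correlated with those of H2-Eb1 (Pearson r 0.954), Cd74 (0.938), H2-Aa (0.935) and H2-Ab1 (0.865) over the 20 libraries, which share 5 mice, so the values are descriptions. H2-Oa (0.954), H2-DMb2 (0.95) and H2-Ob (0.904) had values as high, and H2-DMa had 0.513. These values include the split of mice A and B from mice C, D and E given above. Jak2, outside the list and named after its values were seen, split likewise, with 302 to 356 against 775 to 854 CPM with DMSO Ova. How many of all tested genes vary with Ciita in this way was not counted, so the values are no result about the list. Without removing the group means, r was 0.427 with H2-Eb1, -0.016 with Cd74, 0.38 with H2-Aa and 0.24 with H2-Ab1. H2-DMb1 showed the reverse order, with 0.921 over all libraries and 0.632 within groups. The plots of these genes against Ciita show the iBET libraries shifted to low Ciita as a band of their own, within which mice A and B again hold the lowest values of H2-Eb1 and Cd74.

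**Figure D3:**
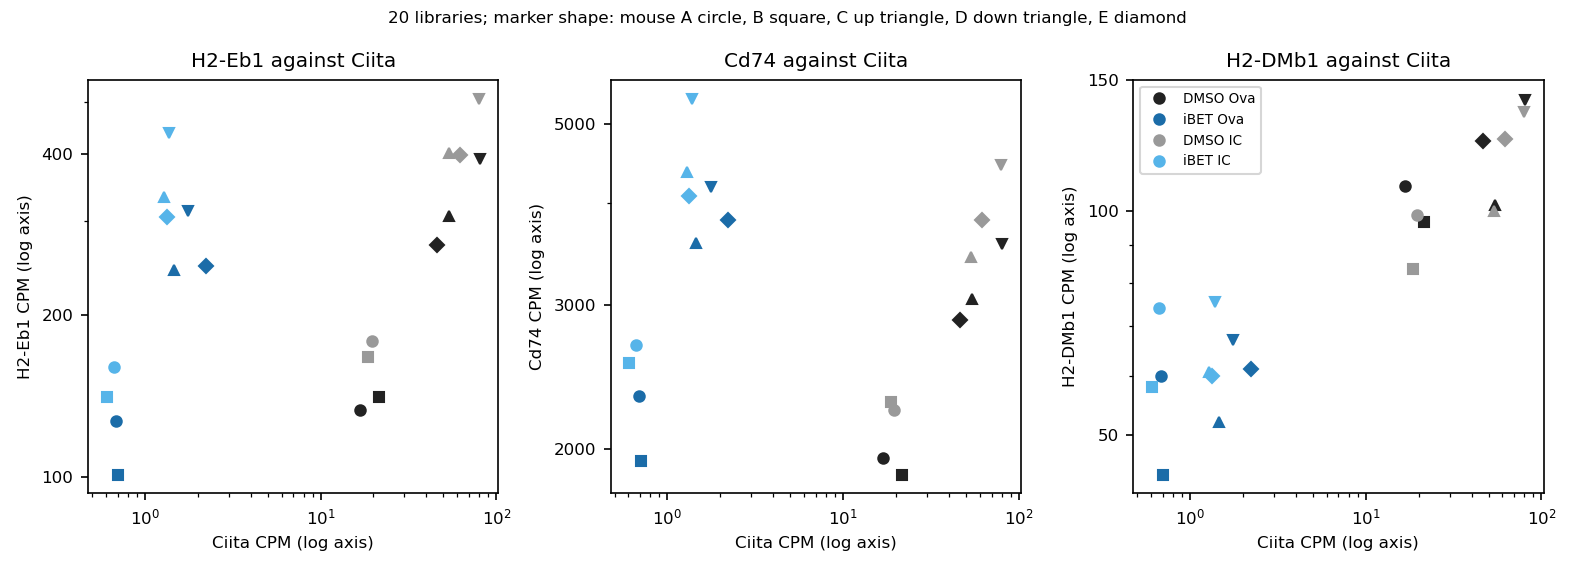
CPM of H2-Eb1, Cd74 and H2-DMb1 against CPM of Ciita in the 20 libraries (log axes), coloured by group and with a marker shape for each mouse. The iBET libraries form a band at 0.606 to 2.22 CPM of Ciita that covers nearly the same heights as the DMSO band for H2-Eb1 and Cd74, and lies below it for H2-DMb1.

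Stimulation with IC in place of Ova did not shift the class II genes beyond the spread between mice when the 4 groups were the only factor. In edgeR 0 of 10 passed with DMSO, beside 9.59% of all tested genes higher and 10.7% lower, and 0 of 10 with iBET, beside 5.19% higher and 6.63% lower. At an unadjusted p under 0.05 there were 0 with DMSO and 1 with iBET (H2-DMa), and DESeq2 called 0 in either. Even so H2-Aa, H2-Ab1, H2-Eb1 and Cd74 were higher with IC in 5 of 5 mice, with DMSO and with iBET alike.

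With the replicate block, these 4 genes passed as higher with IC in DMSO, beside 18.3% of all tested genes higher and 19.8% lower. Their log2 fold changes were 0.35 for H2-Aa (edgeR adjusted p = 7.08e-05), 0.36 for H2-Ab1 (0.00014), 0.4 for H2-Eb1 (1.22e-05) and 0.28 for Cd74 (0.000432). With iBET 8 genes passed as higher, beside 14.2% higher and 14.7% lower over all tested genes, namely these 4 at 0.35, 0.35, 0.41 and 0.27, and H2-DMa, H2-DMb1, H2-DMb2 and H2-Oa at 0.22 to 0.34. Ciita did not pass with either treatment, with block values of 0.08 for DMSO (SE 0.093) and -0.35 for iBET (SE 0.221).

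Whether iBET acted differently with IC than with Ova was tested as an interaction. It passed for 0 of 10 genes in edgeR, beside 0.0401% of all tested genes, and 0 had an unadjusted p under 0.05. DESeq2 called 0, and edgeR with the block called 0, beside 0.818% of all tested genes. The lowest adjusted p with the block was 0.205, for H2-DMb1 (log2 difference 0.29 ± 0.0969 SE), so the smaller fall of H2-DMb1 with IC than with Ova was not shown to differ.

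Genes that build the class II promoter complex or act on Ciita moved in both directions with iBET. Of 18 tested genes, 10 were lower and 4 higher with Ova and likewise with IC, beside 28.9% and 27.7% of all tested genes with Ova and 29.0% and 27.1% with IC, and with a median log2 fold change of -0.44 and -0.42. Spi1, which encodes the myeloid transcription factor PU.1, had 193 ± 11.1 CPM with DMSO Ova and 32.3 ± 4.1 CPM with iBET Ova (SD, n = 5 each). Its log2 fold change was -2.57 (edgeR adjusted p = 2.66e-14), and -2.77 with IC, with no overlap between the groups.

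Prdm1, the gene of Blimp-1, a repressor of Ciita in plasma cells, fell by 1.62 on the log2 scale in the Ova groups (edgeR adjusted p = 7.96e-08) and by 1.79 in the IC groups. Rfx5, the DNA-binding subunit of RFX, named here after its values were seen, fell by 1.37 on the log2 scale with Ova, from 16 ± 3.79 to 6.2 ± 0.636 CPM (edgeR adjusted p = 7.7e-08), and by 1.29 with IC. The partner subunit gene Rfxap rose (0.44, edgeR adjusted p = 0.00807 with Ova, and 0.57 with IC), as did Nfya, a subunit of NF-Y, from 69.4 ± 16 to 114 ± 10.1 CPM (0.71, edgeR adjusted p = 0.000255, and 0.75 with IC). The members of the complex thus moved in both directions. Rfxap did not pass with Ova without mouse C (edgeR adjusted p = 0.0614) or mouse E (adjusted p = 0.0624), and had 0.09 in mice A and B alone (adjusted p = 0.618).

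Few genes of the endosomal machinery of class II loading passed with the 4 groups as the only factor. Of 13 tested genes, the cathepsins, Ifi30 and Cst3 among them, 0 passed with Ova in edgeR and 0 in DESeq2. Of all tested genes, edgeR called 28.9% lower and 27.7% higher with Ova, and 29.0% and 27.1% with IC. With IC Ctsc, the gene of cathepsin C, rose (0.22, edgeR adjusted p = 0.0345). Lgmn, the gene of an asparaginyl endopeptidase, fell with IC (-0.41, adjusted p = 0.0295), and both are named after their values were seen. This count with IC dropped to 0 when mouse C, D or E was left out. With the block, 3 were lower and 3 higher in either comparison. Of all tested genes, the block called 35.2% lower and 33.5% higher with Ova, and 35.4% and 32.6% with IC. Without the block, 1 of 13, Lgmn, had an unadjusted p under 0.05 with Ova. Ctsb, named here after its values were seen, had 3610, 3170, 1910, 2100 and 2150 CPM with DMSO Ova in mice A to E. With iBET Ova it had 4520, 3350, 2570, 2660 and 2800 CPM, higher in each mouse. Over the 13 genes the median was -0.04 for Ova and 0.02 for IC on the log2 scale.

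Among 8 genes of turnover and surface level, March1 stood out. It encodes the ubiquitin ligase that sends class II molecules from the surface to lysosomes, and fell from 94 ± 19.9 to 16.8 ± 3.43 CPM with Ova (SD, n = 5 each). Its log2 fold change was -2.49 (edgeR adjusted p = 3.85e-10) with Ova and -2.65 (adjusted p = 1.45e-10) with IC, lower in 5 of 5 mice. The tetraspanin gene Cd81 (0.45, edgeR adjusted p = 1.04e-06) and the related ligase gene March8 (0.25, adjusted p = 0.00663) rose with Ova, and had 0.37 and 0.21 with IC, where March8 did not pass without mouse D (adjusted p = 0.0793). In all, 3 rose and 1 fell with Ova, and 2 rose and 2 fell with IC. With the replicate block, 3 rose and 5 fell with Ova, and 2 and 4 with IC. At these numbers the counts are no result about the list, beside 27.7% of all tested genes higher and 28.9% lower with Ova, or 33.5% and 35.2% with the block. The shares with IC were 27.1% higher and 29.0% lower, or 32.6% and 35.4% with the block.

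The class II genes other than Ciita and Cd74 lie on chromosome 17 between 34092340 (the start of H2-Oa) and 34316674 (the end of H2-Eb1, GRCm38). Of 12 other tested genes in and around this stretch, 3 were higher and 5 lower with Ova, and 3 and 6 with IC, beside 27.7% higher and 28.9% lower of all tested genes with Ova and 27.1% and 29.0% with IC. With the block 3 were higher and 7 lower in either comparison. Of all tested genes, the block called 33.5% higher and 35.2% lower with Ova, and 32.6% and 35.4% with IC. Brd2, which overlaps H2-DMa, went from 230 ± 23.1 to 1200 ± 68.1 CPM with Ova, a rise of 2.39 on the log2 scale (edgeR adjusted p = 1.09e-14), and had 2.35 with IC. Notch4, at 0.252 ± 0.155 CPM with DMSO Ova, rose by 1.29 on the log2 scale (edgeR adjusted p = 0.00663) and by 1.88 with IC, with 0.75 in mice A and B alone for Ova (adjusted p = 0.245). Tap2, a subunit of the peptide transporter for class I, fell (-1.1, edgeR adjusted p = 1.83e-10, and -0.94 with IC), and so did Vps52, a subunit of a tethering complex of endosome-to-Golgi transport (-0.62, adjusted p = 7.98e-07, and -0.52).

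The costimulatory and coinhibitory ligands that act beside class II were mostly lower. Of 9 tested genes 8 were lower and 0 higher with Ova and with IC, beside 28.9% and 29.0% of all tested genes lower and 27.7% and 27.1% higher, with a median log2 fold change of -1.95 and -1.62. Pdcd1lg2, the gene of PD-L2, dropped from 93.8 ± 31.5 to 6.16 ± 1.9 CPM with Ova. This is -3.93 on the log2 scale (edgeR adjusted p = 4.79e-10), and with IC it was -3.85. Cd70 was scarce, with 70 counts over the 5 DMSO Ova libraries and 1 over the 5 iBET Ova libraries, a ratio of 1.51% of the DMSO level (95% exact interval 0.0378% to 8.71%, counting error only). With IC the counts were 75 and 3, or 3.98% (0.802% to 12.1%).

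**Figure D4:**
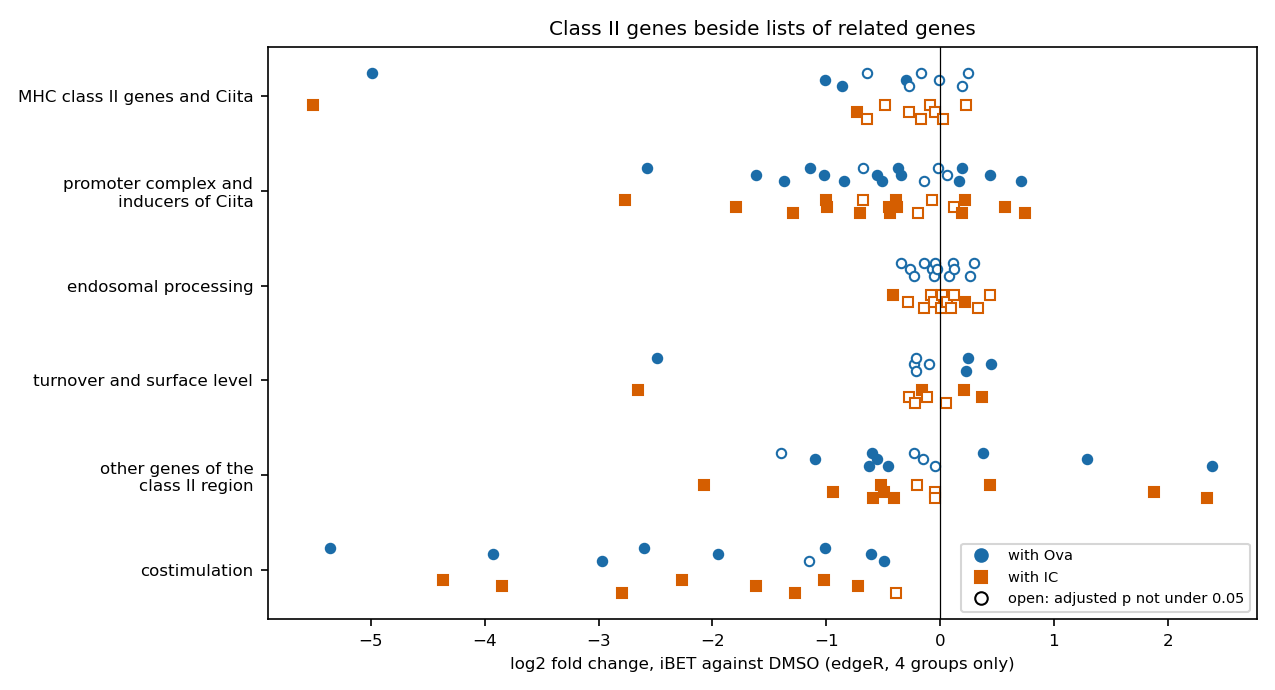
Log2 fold change of iBET against DMSO for each tested gene of the class II list and of the 5 lists of related genes, with Ova (circles) and with IC (squares), filled where the edgeR adjusted p was under 0.05. Ciita lies near -5 at the far left of the class II row, the endosomal genes cluster around 0, and the costimulatory genes spread to the left of 0.

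The genes whose log2 CPM ran most like that of Ciita over the 20 libraries were Gpr55 (Pearson r 0.989), Serpinb9 (0.988), Rnf180 (0.988), Usp18 (0.986) and Ints3 (0.986). Those most like the mean of H2-Aa, H2-Ab1, H2-Eb1 and Cd74 were Cst3 (0.945), Hspbap1 (0.941), Plbd1 (0.939), Mir5107 (0.939) and Gadd45b (0.939). These lists had no gene in common. The libraries share 5 mice and 4 conditions, so the values are descriptions with no test, and Mir5107 lies within Cd74, with 12 shared exonic bases, so that its counts may be reads of Cd74.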

How the data were processed

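RNA-seq libraries of BMDCs (SMARTer pico input kit) were analysed from 5 mice in each of 4 groups. As the methods and labels state, the authors trimmed reads, mapped them with HISAT2 (mm10), used featureCounts and deposited whole-number counts per gene. The strand setting and the treatment of multi-mapping reads are not given in the sources used here. A second deposited table, the counts divided by size factors, was not used.

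After filterByExpr and TMM normalization, edgeR 4.0.16 (R 4.3.3) fitted a quasi-likelihood model of the 4 groups to all 20 libraries, without further covariates, and Benjamini-Hochberg adjustment ran over the 12465 tested genes, with calls at an adjusted p under 0.05. SE is the log2 fold change divided by the root of F. CPM are TMM-normalized, log2 CPM used a prior count of 2, and exon lengths came from GENCODE M21 (GRCm38). Deviations from the group means were shared between the libraries of a mouse (r at least 0.307 over 30 pairs, mean 0.524), so the mouse letter in the labels pairs the samples. Different mice had a mean r of -0.127. Removing the group means pushes that value below 0 when the libraries of a mouse agree, so it is no separate support. Block values are printed where they change a call. Within groups, 40 of 40 pairs of libraries differed beyond counting error (lowest chi-square over its degrees of freedom 13.2).

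The genes and the lists of related genes were chosen with earlier results of these data known. All 10 class II genes are named. From each related list, the 2 largest rises and the 2 largest falls past the threshold with Ova are named, and also the 5 genes most like Ciita and the 5 most like the classical genes. Other alternatives were DESeq2 1.42.0, its size factors, library size only, no filter on low counts, a fit to only the 2 groups in question, 3 surrogate variables (sva 3.50.0), each mouse left out, and mice A and B or C, D and E alone. The edgeR and DESeq2 fits without the block were run on simulated counts that held no mouse effect. That run does not cover the model with the block or libraries that share mice. The result of a further marker list is not reported here.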

Additional observations from a re-analysis of the deposited data

How the results depend on the processing

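Ciita passed under each of the 14 alternatives, with log2 fold changes of -5.24 to -4.76 with Ova and -5.57 to -4.88 with IC. Of 690 values of the class II genes under alternatives, 614 kept direction and side of the threshold, 40 newly passed, 4 no longer passed and 32 changed sign. With the replicate block 8 class II genes instead of 4 were called with Ova, 7 instead of 2 with IC, and 4 with DMSO and 8 with iBET instead of 0 between IC and Ova. With surrogate variables, 6 were called with Ova, 4 with IC, and 3 with DMSO and 3 with iBET between IC and Ova. In mice A and B only, 3 were called with Ova and 1 with IC. In mice C, D and E only, 6 were called with Ova, 4 with IC, and 1 between IC and Ova with DMSO. With one mouse left out, 2 to 4 genes were called with Ova, 2 to 3 with IC, and 0 to 0 between IC and Ova and in the interaction. No share of all tested genes was computed with surrogate variables, in a set of mice alone or with a mouse left out. The counts under these settings are therefore no result about the list.

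For the class II genes the block changed no call other than those given in the report. It moved the promoter complex list to 12 lower and 4 higher with Ova and 11 and 5 with IC, and costimulation to 9 lower in both. Of all tested genes, the block called 35.2% lower and 33.5% higher with Ova, and 35.4% and 32.6% with IC. The 32 sign changes were of values that did not pass. For iBET against DMSO, H2-Ab1 with Ova became 0.02 without the filter, 0.06 in mice C, D and E, and -0.05 to 0.07 with a mouse left out. With IC, H2-Ab1 became 0.1 and H2-DMa 0.02 in mice A and B, and H2-Ob -0.02 with library size only and 0 to 0.1 with a mouse left out. For IC against Ova with DMSO, library size only gave -0.02 for Ciita, -0.1 for H2-DMa and -0.06 for H2-Ob, and mice A and B gave -0.01, -0.02 and -0.03. With a mouse left out, the ranges were -0.01 to 0.15, -0.02 to 0.03 and -0.09 to 0.17. Library size only also moved the median of all genes between IC and Ova to -0.13 with DMSO and -0.12 with iBET.

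In the interaction, H2-Aa became 0 and H2-Eb1 -0.01 without the filter, and -0.01 and -0.04 in mice C, D and E. H2-Ab1 became 0.17 and Cd74 0.08 in mice A and B, and Cd74 0.01 with surrogate variables. With a mouse left out, H2-Aa ranged from -0.04 to 0.05, H2-Ab1 from -0.1 to 0.04, H2-Eb1 from -0.04 to 0.08 and Cd74 from -0.07 to 0.07. The causes of these shifts were not tested. At 7 to 53 counts per library, small changes of H2-Ob could not be resolved.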

Other observations

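In 40 sets of 5 values (10 genes in 4 groups), 0 libraries stood apart from the other 4 of their group by Dixon's test at 0.71 of the range. In most of these genes mice A and B lay together below mice C, D and E. That split widens the range, so the test could hardly single out a library there.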
